A study of Mus musculus with 12 samples.

Results

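The DNA replication genes examined here are the proteins that license origins, unwind DNA, copy it and repackage it. The list held 40 genes, chosen by their known function but with earlier results of these data known. Of these, 39 were among the 23513 genes of the count tables. Cdt1 was not analysed here. Nuclei came from the cortices of C57BL/6J embryos and were profiled by snRNAseq, which counts RNA molecules by unique molecular identifiers (UMIs) nucleus by nucleus. Pregnant dams received 1 intraperitoneal injection a day for 6 days, starting at E8.5, of saline (5 embryos, dams S1 and S2) or of 2.5 g/kg EtOH given as 25% v/v in saline (6 embryos, dams E1 and E2). Saline was thus common to both groups. The labels give the age as embryonic day 14, and by the study's methods collection fell on the day after the last injection. Dams S1 and E1 formed batch 1 and dams S2 and E2 batch 2, so each group rests on 2 dams. Saline embryo S2-3 was not used here. The p-values measure the spread between embryos, which share dams. The comparison asks how strongly each cell type of the cortex carried these genes, and whether prenatal EtOH moved them.

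The cell cycle keeps the loading of the replicative helicase apart from its activation. In G1 the origin recognition complex, Cdc6 and Cdt1 load the Mcm2 to Mcm7 helicase onto DNA, and in S phase Cdc45 and the GINS proteins switch the helicase on. Polymerase alpha and primase then lay down primers, polymerases delta and epsilon extend them on the Pcna clamp, and Fen1 and Lig1 join the lagging strand. In the cortex the cycling cells are radial glial cells (RGCs) and intermediate progenitors (IPCs), and projection neurons (PN) have left the cycle.

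Many replication genes are known targets of E2F factors, so their promoters were searched for the letters TTTGGCGC and TTTCCCGC, which belong to the E2F consensus, on both strands from 250 bases before to 50 bases after the start site (RefSeq promoters, GRCm38.p6). A promoter was read for 30 of the 39 genes, and none was read for Gins1, Rfc2, Mcm4, Dscc1, Gins2, Tipin, Atad2, Prim2 and Pole. Either run of letters was present in 11 of the 30 (36.7%), against 1.80% of 27025 genes. Other replication genes held one of them in 9 of 41 cases (22%) and genes of G2 and mitosis in 1 of 13. The 8 windows of 30 bases below belong to the licensing genes with a match, and to Pola1, because Mcm7 and Pola1 are the members that were called most often between the groups. Capitals mark the match, which reads GCGCCAAA or GCGGGAAA where it lies on the strand opposite to the gene. All are written 5′ to 3′ on the strand of the gene.
Mcm3, chr1:20820263-20820292, minus strand: cgggaaaacttgggaagtTTTGGCGCcaag
Mcm3, chr1:20820275-20820304, minus strand: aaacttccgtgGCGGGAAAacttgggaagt
Mcm5, chr8:75109349-75109378, plus strand: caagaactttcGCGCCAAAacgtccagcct
Mcm6, chr1:128359797-128359826, minus strand: tggcgtatgctTTTGGCGCgaaaagtgcgt
Mcm6, chr1:128359734-128359763, minus strand: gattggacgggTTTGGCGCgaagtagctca
Mcm7, chr5:138172030-138172059, minus strand: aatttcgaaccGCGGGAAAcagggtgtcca
Cdc6, chr11:98908002-98908031, plus strand: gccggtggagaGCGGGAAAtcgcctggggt
Pola1, chrX:93632275-93632304, minus strand: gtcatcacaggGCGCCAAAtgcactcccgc

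Start sites here are those of RefSeq transcripts, and a gene can have several. The first base of the match lay 165 bases before such a start of Mcm7 and 138 bases before that of Pola1. The Mcm7 match lies inside the gene as GENCODE draws it, since that annotation reaches to base 138172422. The letters TTTGAA, known from promoters of late cell cycle genes, stood in 4 of the 30 replication promoters (13.3%) and in 9 of 13 promoters of G2 and mitosis genes (69.2%), against 20.2% of all genes. CCAAT stood in 20 of the 30 (66.7%), against 41.1% of all genes. None of these runs contains another. A match describes letters only, and no binding was measured.

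The tables held 50550 nuclei, 30349 from saline and 20201 from EtOH embryos, in 25 clusters named by the study. Saline libraries were deeper, with 44.0 to 83.1 UMIs (in units of 1e+06) per embryo against 14.1 to 38.0 in EtOH. Median UMIs per nucleus ran from 6325 to 9051 in saline and from 4071.5 to 6911 in EtOH embryos. The replication genes took 493525 UMIs, 0.112% of all, and Pola1 alone took 100342. A barcode sequence occurred in 1 library only in 49912 cases, in 2 libraries in 311 and in more in 3. Radial glial markers (6 of 6 detected) summed to between 509 and 763 CPM in Cluster 2 and between 597 and 817 CPM in Cluster 12. The IPC marker Eomes lay between 160 and 299 CPM in Cluster 17, and Gad2, Dlx1 and Dlx2 together between 1120 and 1673 CPM in Cluster 10. Cluster 3 is an RGC cluster that the study proposes may be interneuron precursors. There the radial glial markers summed to between 472 and 599 CPM, and Gad2, Dlx1 and Dlx2 to between 156 and 315 CPM. Saline embryo S2-4 moved the calls more than any other embryo when left out. It was picked by this effect on the comparison itself, so p-values without it are no independent support. Without it, the count of gene tests called between the groups over the 25 clusters went from 961 higher and 760 lower to 13401 higher and 5658 lower, so each call of a gene on the list of 39 is given with and without that embryo. Shorter genes leaned upward after EtOH. In Cluster 2 the median log2 fold change was 0.24 for genes under 5 kb and -0.14 for genes over 200 kb, and values with this trend removed are given beside the calls of the 39 genes.

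The summed level of the 39 genes, in CPM of an embryo's cluster (UMIs of the genes scaled to 1e+06 UMIs of the cluster), was high in progenitor clusters and low in most neurons. It was highest in Cluster 3, RGCs that the study proposes may be interneuron precursors, at 3058 ± 265 CPM (mean ± SD, n = 11 embryos). RGC Cluster 2 followed with 2747 ± 237 CPM, non-mitotic RGCs of Cluster 12 with 2706 ± 263 CPM, mitotic IPCs of Cluster 17 with 2460 ± 227 CPM and late interneuron precursors of Cluster 10 with 2251 ± 301 CPM. Cluster 20, a second RGC cluster, stood at 1816 ± 318 CPM (n = 9) and cortical hem RGCs of Cluster 21 at 1140 ± 340 CPM (n = 10). Non-mitotic IPCs of Cluster 6 held 868 ± 140 CPM. Projection neuron clusters lay between 360 and 500 CPM, and interneuron clusters other than Cluster 10 between 506 and 821 CPM, the top of that range being migrating interneurons of Cluster 5. The highest cluster exceeded the lowest, projection neuron Cluster 25 (n = 7), 8.49-fold.

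Most neighbours in this order did not differ beyond their spread. Within embryos, only 6 of 24 neighbouring pairs had a mean difference larger than its SD. Cluster 3 exceeded Cluster 2 by 311 ± 213 CPM and was higher in 10 of 11 embryos. Cluster 12 exceeded Cluster 17 by 246 ± 176 CPM in 9 of 11 embryos. The steps from Cluster 20 to 21, 21 to 6, 5 to 23 and 9 to 24 were also beyond their spread. Clusters 2 and 12 differed by 40.8 ± 253 CPM and could not be ordered. Nor could non-mitotic IPCs of Cluster 6 and migrating interneurons of Cluster 5, which differed by 46.2 ± 117 CPM, with Cluster 6 higher in 6 of 11 embryos. Clusters were defined on the expression of these same nuclei, so the order is a description.

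**Figure D1:**
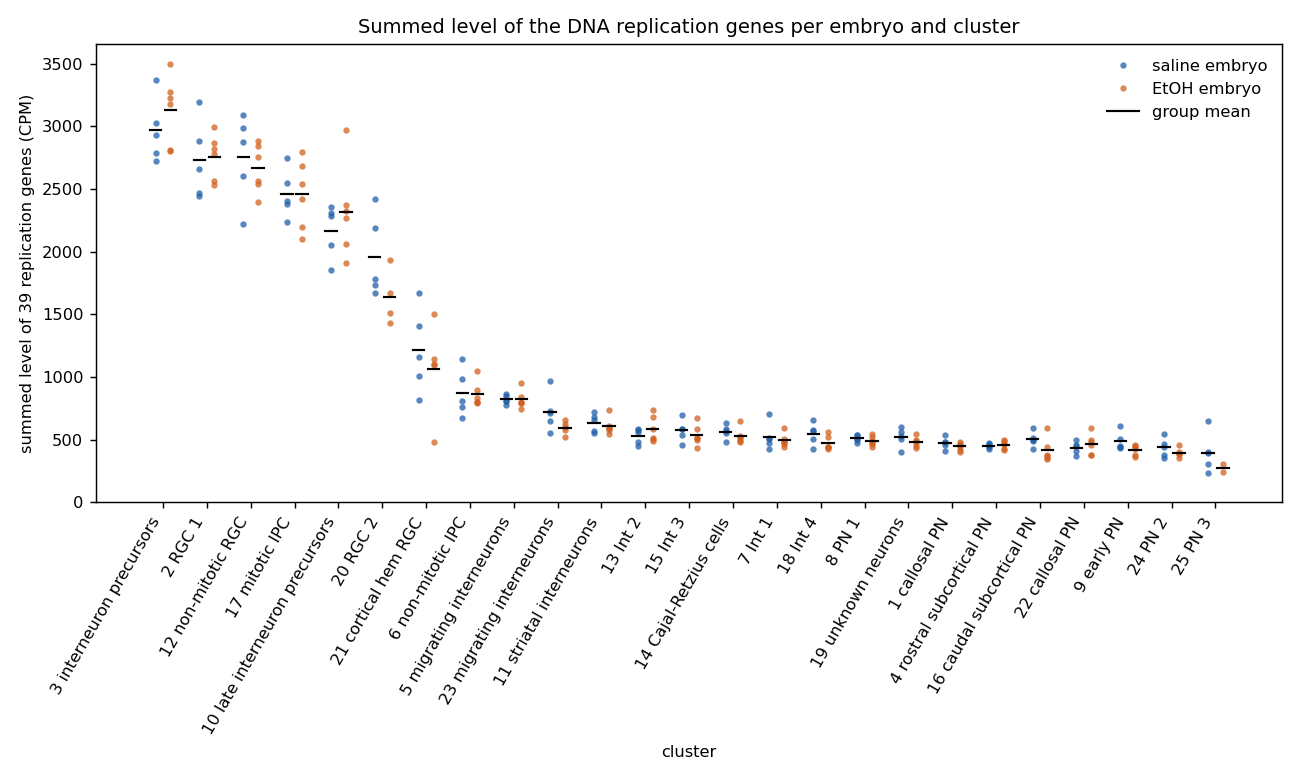
Summed level of 39 DNA replication genes (CPM, linear axis) in each embryo, with 25 clusters ordered by their mean along the x axis. Points are embryos with at least 10 nuclei in the cluster, blue for saline and orange for EtOH, and bars are group means. Cluster 3 stands highest at 3058 CPM, PN clusters have means from 360 to 500 CPM, and the groups overlap in every cluster.

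Cluster 12, which the study names non-mitotic, carried replication genes at the level of Cluster 2 and few transcripts of G2 and mitosis. A list of 15 such genes, among them Top2a, Mki67 and Cdk1, summed to 471 ± 99.8 CPM in Cluster 12 and to 3236 ± 414 CPM in Cluster 2. Within embryos the mitotic sum was 6.95-fold lower in Cluster 12 than in Cluster 2 in 11 of 11 embryos, while the replication sum was 0.984-fold and higher in 6 of 11. The ratio of the replication to the mitotic sum was 5.74 in Cluster 12, 0.849 in Cluster 2, 1.2 in Cluster 3, 0.926 in Cluster 10 and 0.682 in Cluster 17. Non-mitotic IPCs of Cluster 6 differed from mitotic IPCs of Cluster 17 on both sums. Their replication sum was 0.350-fold and their mitotic sum 0.0504-fold that of Cluster 17, lower in 11 of 11 embryos.

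**Figure D2:**
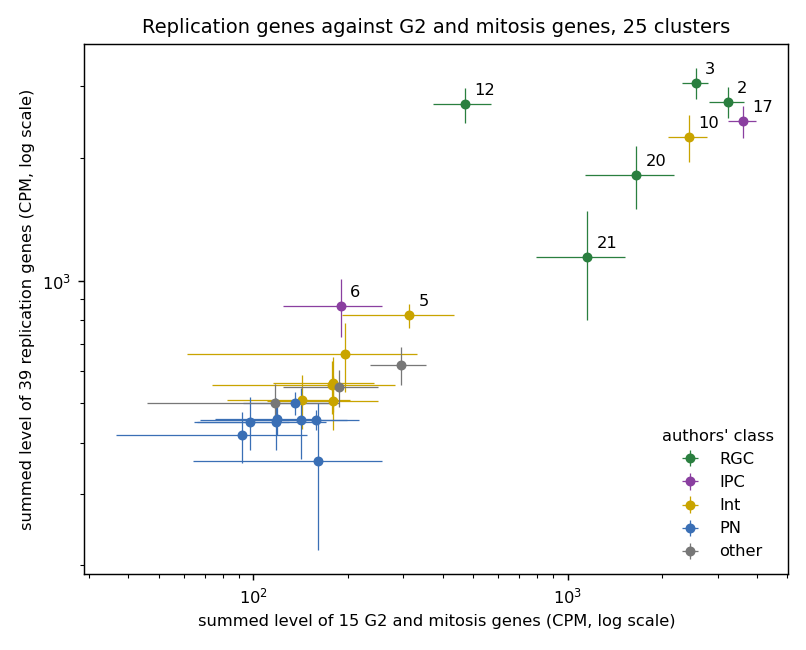
Summed level of 39 replication genes (y axis, CPM, log scale) against that of 15 genes of G2 and mitosis (x axis, CPM, log scale) for 25 clusters, coloured by the study's class. Points are means and bars SDs over embryos. Cluster 12 sits at 471 CPM on the x axis and 2706 CPM on the y axis, away from Clusters 2, 3, 10 and 17, which are high on both.

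Single nuclei showed the same split. To set depths equal, each nucleus was thinned to 2000 UMIs, which left out 177 saline and 210 EtOH nuclei. At least 1 replication UMI was then found in 93.0% of nuclei of Cluster 2, and also in 56.7% of projection neurons, which set the background for this share. Before thinning the shares were 99.2% and 91.7%, at median depths that ran over embryos from 4263.5 to 9599.5 UMIs in Cluster 2 and from 4357 to 10118 in projection neurons. At least 3 replication UMIs were found in 72.3% of nuclei in Cluster 2, 71.7% in Cluster 3, 51.3% in Cluster 10, 65.4% in Cluster 12 and 73.4% in Cluster 17, against 7.34 ± 0.903% in projection neurons (n = 11). In Cluster 12, 57.0% of nuclei had at least 3 replication UMIs and fewer than 3 mitotic UMIs, and 8.43% had at least 3 of each. In Cluster 17 these shares were 12% and 61.3%, and in Cluster 2 they were 23.4% and 48.9%. For the thinned share with at least 3 replication UMIs, the groups overlapped in every cluster but Cluster 20. In Cluster 12 the share with at least 3 replication UMIs ran from 54.3% to 81.2% in saline (median 71.2%, n = 5) and from 52.7% to 70.1% in EtOH embryos (median 63.7%, n = 6). In RGC Cluster 20 it stood at 51.8%, 50%, 53.4%, 46.7% and 60.98% in saline embryos S1-1, S1-2, S2-1, S2-2 and S2-4, and ran from 20.7% to 42.9% in 4 EtOH embryos with 28 to 95 thinned nuclei each. Every EtOH embryo there lay below every saline embryo, which is given as a description with no test. Before thinning, the median depth of these nuclei was 6764 to 9349 UMIs in saline and 3196 to 7262 in EtOH embryos.

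By role, the licensing genes set Cluster 12 apart. All 8 had their highest mean there, and their sum was highest there too, at 410 ± 48.8 CPM, against 302 ± 35.8 in Cluster 3 and 262 ± 36.7 in RGC Cluster 2. Of the 39 genes, 6 were higher in Cluster 12 than in Cluster 2 in 11 of 11 embryos, and all 6 encode subunits of the Mcm2 to Mcm7 helicase. The within-embryo fold was 1.86 for Mcm2, 1.62 for Mcm3, 1.79 for Mcm4, 1.47 for Mcm5, 1.79 for Mcm6 and 1.36 for Mcm7. The 3 genes lower in Cluster 12 in every embryo were Clspn (0.667-fold), which carries the replication checkpoint signal, Tyms (0.785-fold), which makes thymidylate, and Atad2 (0.743-fold), a bromodomain ATPase of S phase chromatin. The other 30 were mixed. Mcm7 had the most UMIs of the licensing group, and its level was 50.3 ± 12.7 CPM in Cluster 2, 52.8 ± 13.47 in Cluster 3, 60.8 ± 16.2 in Cluster 6, 55.9 ± 17.8 in Cluster 10, 69.1 ± 19.8 in Cluster 12, 53.7 ± 20.9 in Cluster 17, 50.1 ± 21.4 in Cluster 20 and 34.9 ± 12.6 in Cluster 21. Mcm3 stood at 44.0 ± 11.7 CPM in Cluster 12 but reached just 18 ± 6.19 in Cluster 17, and 8.42 ± 4.14 in Cluster 6.

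Of the 5 genes that activate the helicase, only Gins2 peaked in Cluster 12, at 25.1 CPM, 1.58-fold its level in Cluster 2 and higher in 10 of 11 embryos. The sum of the 5 was highest in Cluster 3 (199 ± 18 CPM) and stood at 161 ± 18.2 CPM in Cluster 12. Gins1, a subunit of the GINS complex and the member of this group with the most UMIs, was level over cycling clusters, with 58.6 ± 8.77 CPM in Cluster 2, 64.4 ± 4.27 in Cluster 3, 56.3 ± 8.96 in Cluster 10, 56.8 ± 14.8 in Cluster 12 and 57.0 ± 14.53 in Cluster 17. It fell off in Clusters 20 (40.7 ± 12 CPM), 6 (24.9 ± 5.12 CPM) and 21 (24.7 ± 14.4 CPM). Mcm10, which helps the loaded helicase to fire, had 50.9 ± 6.28 CPM in Cluster 2, against 34.4 ± 9.93 in Cluster 12. Cdc45, a part of the active helicase, had 33.2 ± 6.80 CPM in Cluster 3, against 7.19 ± 3.23 in Cluster 6.

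Polymerases and primase, 8 genes, summed to 1277 ± 105 CPM in Cluster 3, 1133 ± 98.6 in Cluster 2 and 1104 ± 111 in Cluster 12. Nuclear RNA is rich in introns, and their part in these counts was not tested. Pola1, the catalytic subunit of polymerase alpha, is a gene of 327 kb on chromosome X, so its count may not be comparable with that of a short gene. Its level was 592 ± 61.8 CPM in Cluster 3, 487 ± 70.8 in Cluster 10, 486 ± 45.9 in Cluster 2, 473 ± 43.9 in Cluster 12, 416 ± 50.8 in Cluster 17, 345 ± 72.5 in Cluster 20, 188 ± 66.6 in Cluster 21 and 140 ± 36.7 in Cluster 6. It was 1.22-fold higher in Cluster 3 than in Cluster 2, in 11 of 11 embryos. Prim2, the large primase subunit, ranged over the 8 progenitor clusters from 73.9 to 239 CPM, and Pole, the catalytic subunit of polymerase epsilon, from 19.2 to 114 CPM.

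The sliding clamp and its loaders differed less between Clusters 12 and 3, with sums of 150 and 157 CPM for 5 genes. Rfc2, a clamp loader subunit, was at 49.3 ± 8.17 CPM in Cluster 12, 42.5 ± 3.68 in Cluster 3, 38.3 ± 6.81 in Cluster 2, 36.4 ± 10.8 in Cluster 20, 32.3 ± 6.37 in Cluster 10, 28.3 ± 3.94 in Cluster 17, 26.8 ± 8.86 in Cluster 21 and 20.4 ± 3.99 in Cluster 6. Pcna, the clamp, peaked in Cluster 12 at 31.8 ± 6.39 CPM. Tipin, which steadies the fork, was at 127 ± 14.46 CPM in Cluster 3, 115 ± 15.4 in Cluster 12, 103 ± 10.8 in Cluster 2, 93.4 ± 19.3 in Cluster 17, 80.6 ± 22.4 in Cluster 20, 77.9 ± 10.3 in Cluster 10, 44.8 ± 16.3 in Cluster 21 and 35.3 ± 5.22 in Cluster 6. Clspn peaked in mitotic IPCs of Cluster 17 at 121 ± 19.9 CPM and fell to 18.1 ± 8.87 CPM in Cluster 6.

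Nucleotide supply followed the cycling clusters. Tyms was at 110 ± 18.6 CPM in Cluster 3, 103 ± 9.93 in Cluster 2, 81.7 ± 15 in Cluster 17, 81.1 ± 9.55 in Cluster 12, 76.1 ± 12.1 in Cluster 10, 62.7 ± 20.4 in Cluster 20, 36.1 ± 16.5 in Cluster 21 and 22.6 ± 5.18 in Cluster 6. Rrm1 and Rrm2, the subunits of ribonucleotide reductase, peaked in Cluster 17 at 84.2 ± 16.1 and 42.6 ± 6.87 CPM. Lig1, the ligase that seals Okazaki fragments, was at 82.2 ± 16.9 CPM in Cluster 12, 75.9 ± 12.2 in Cluster 3, 67.8 ± 8.25 in Cluster 2, 57.4 ± 8.39 in Cluster 17, 55.3 ± 10.9 in Cluster 10, 41.0 ± 7.49 in Cluster 20, 29 ± 15.3 in Cluster 21 and 18.2 ± 5.66 in Cluster 6. Atad2 was at 334 ± 32.1 CPM in Cluster 3, 322 ± 25.3 in Cluster 2, 301 ± 39.6 in Cluster 17, 241 ± 35.5 in Cluster 10, 241 ± 41.2 in Cluster 12, 175 ± 45.8 in Cluster 20, 109 ± 39.4 in Cluster 21 and 49.8 ± 11.9 in Cluster 6. Its drop from Cluster 3 to Cluster 12 was the reverse of the order of the helicase subunits. Of the 39 genes, 16 had their highest mean in Cluster 12, 15 in Cluster 3, 4 in Cluster 17 (Fen1, Rrm1, Rrm2 and Clspn), 3 in Cluster 2 (Rfc4, Rpa2 and Mcm10) and 1, Helb, in migrating interneurons of Cluster 23.

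**Figure D3:**
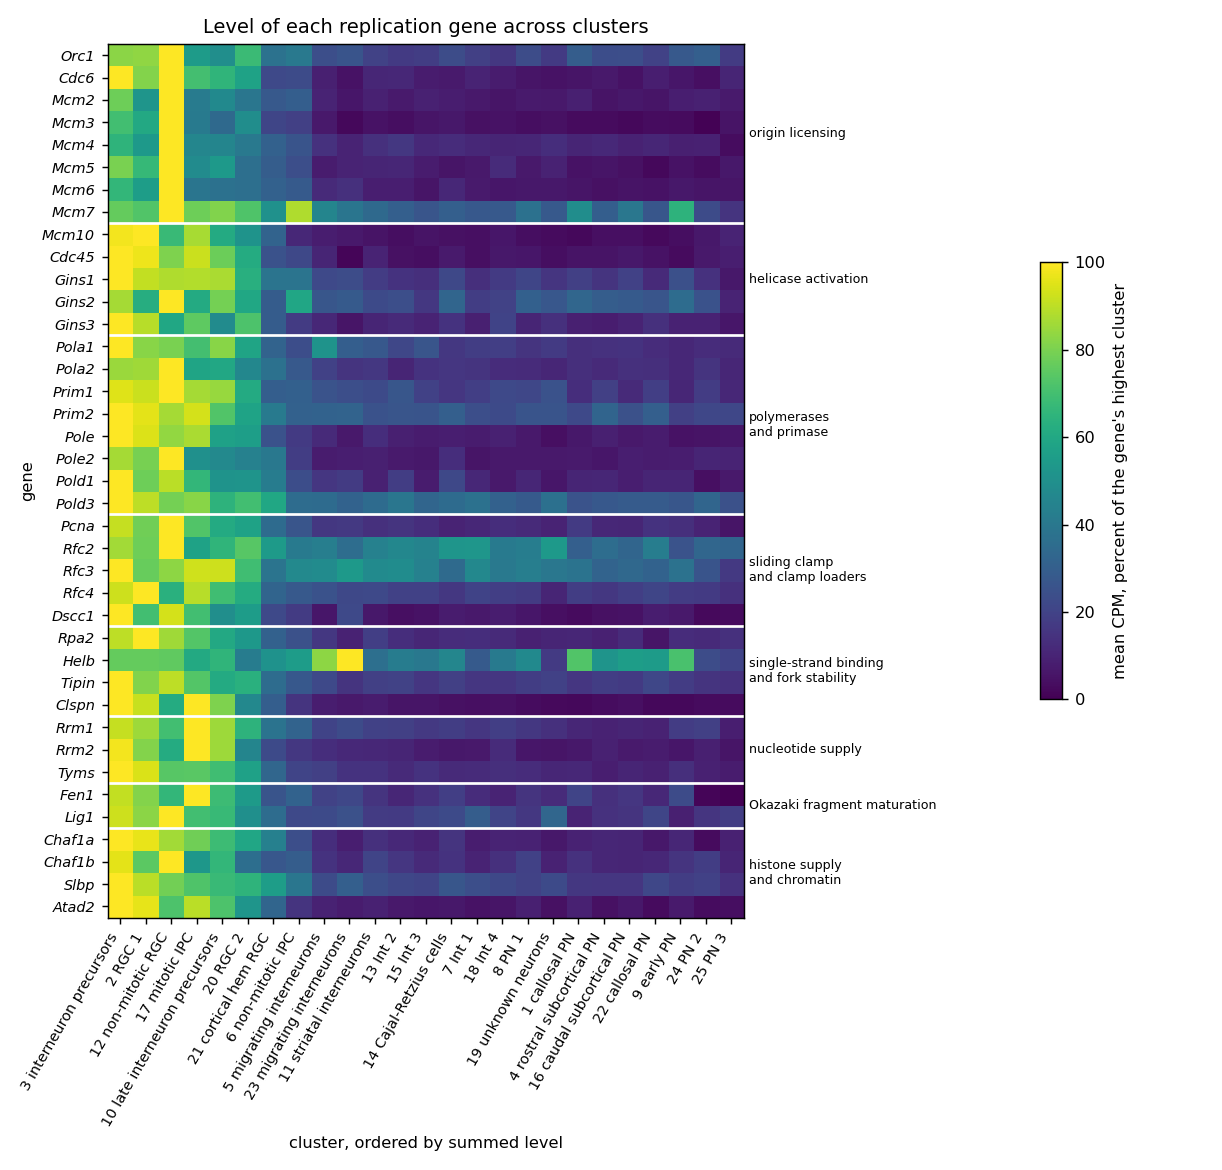
Mean level of each of 39 replication genes (rows, grouped by role) in 25 clusters (columns, ordered by summed level), as a percentage of the gene's own highest cluster. All 8 licensing genes peak in Cluster 12, 15 other genes in Cluster 3, and Mcm7, Rfc2 and Helb keep colour in the neuron columns on the right.

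Replication genes differed in how far they were lower in projection neurons. The ratio of the mean in PN clusters to that in the cycling Clusters 2, 3, 10 and 17 was highest for Helb, a helicase that acts on single-strand DNA, at 0.714. Rfc2 followed at 0.478, Mcm7 at 0.463, Gins2, a GINS subunit, at 0.379, and Orc1, the largest subunit of the origin recognition complex, at 0.362. The lowest ratios were 0.0310 for Clspn, 0.0530 for Mcm10, 0.0598 for Mcm3, 0.0627 for Cdc45 and 0.0648 for Atad2. Mcm7 and Mcm3, subunits of the same ring, thus differed: Mcm7 had 24.6 CPM in PN clusters against 53.2 in the cycling clusters, and Mcm3 had 1.35 against 22.6. A gene on the other strand overlapped 18 of the 39, among them Helb, Rfc2, Mcm7, Gins2 and Orc1 but also Clspn and Cdc45, which had low ratios. By the methods counting ran with Cell Ranger defaults, and no strand setting is named. The part of reads from such partners in these levels was not tested. Across the 25 clusters, Mcm7 followed the summed level least closely of the 35 members with at least 20 CPM in some cluster (r = 0.818), and Tyms reached 0.992. The summed level holds each of these genes itself, and clusters of an embryo share a library, so these correlations are descriptions.

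The summed level did not separate the groups in any cluster. The ratio of EtOH to saline means ran from 0.699 to 1.10, above 1 in 7 clusters and below 1 in 18. This range includes Cluster 25, which had just 2 EtOH embryos. Over the progenitor clusters the ratio ran from 0.834 to 1.07. In Cluster 3 the saline embryos S1-1, S1-2, S2-1, S2-2 and S2-4 stood at 2930, 2791, 2725, 3368 and 3028 CPM, and EtOH embryos ran from 2806 to 3495 with a median of 3202. In Cluster 2 they stood at 2468, 2441, 2887, 3197 and 2663 CPM, and EtOH embryos ran from 2536 to 2994 with a median of 2800. The groups overlapped widely in both. The ratios were 1.06 in Cluster 3, 1.01 in Cluster 2, 0.967 in Cluster 12, 0.997 in Cluster 17, 1.07 in Cluster 10 and 0.834 in Cluster 20. The order of the clusters was close to the same in both groups. Cluster 12 came before Cluster 2 in saline, at 2756 and 2731 CPM, and after it in EtOH, at 2665 and 2760 CPM, differences within the spread above. Both orders began with Cluster 3 and placed Clusters 17, 10, 20, 21, 6 and 5 alike, and 10 of the 25 clusters held the same place in both.

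Few single genes were called between the groups within clusters. A gene was called where edgeR's quasi-likelihood test gave an adjusted p under 0.05 and the fold change was below 0.8 or above its inverse. Of 543 tests on replication genes over 25 clusters, 6 were called, 4 higher and 2 lower, against 0.792% of 217253 tests on all genes. An unadjusted p under 0.05 was reached in 70 of the 543 (12.9%), below the 17.4% of all gene tests. Mcm7 was called higher in Clusters 2, 4 and 12, Orc1 higher in Cluster 1, and Pola1 lower in Clusters 1 and 11. The background was 0.718% of genes called in Cluster 2, 0.719% in Cluster 4, 0.656% in Cluster 12, 3.26% in Cluster 1 and 0.835% in Cluster 11, where 39, 28, 37, 26 and 24 replication genes were tested. Left-out embryos changed the count strongly. It was 32 of 535 tests without S2-4, where 8.78% of all gene tests were called. It was 0 without S1-1, S1-2, S2-1, S2-2, E2-1 or E2-4 (0.0408% to 0.238% of all gene tests), 4 without E1-1 (0.352%), and 1 without E1-2, E2-2 or E2-3 (0.0614% to 0.185%). It was 17 of 510 in batch 1 alone, where 3.87% of all gene tests were called, and 0 of 563 in batch 2 alone, where 0.0224% were.

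Mcm7, a subunit of the replicative helicase, rose in RGC Cluster 2. The saline embryos S1-1, S1-2, S2-1, S2-2 and S2-4 stood at 32.1, 35.5, 33.8, 44.8 and 50.8 CPM, and EtOH embryos ran from 50.1 to 69.2 with a median of 59.5 (1821 UMIs in all). Only S2-4 reached the range of the EtOH embryos. The log2 fold change was 0.55 ± 0.115 (SE; edgeR, adjusted p = 0.0408). It was 0.72 in batch 1, 0.45 in batch 2, 0.64 without S2-4 (edgeR, adjusted p = 0.000392) and 0.42 with the length trend removed, where the call was lost (edgeR, adjusted p = 0.0595). Leaving out any embryo but S2-4 also lost it.

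In non-mitotic RGCs of Cluster 12, Mcm7 stood at 45.6, 55.7, 49.3, 51.5 and 60.9 CPM in the same saline embryos and at 60.1 to 100 CPM in EtOH, median 85.5 (765 UMIs). Again only S2-4 overlapped the EtOH range, and by less than 1 CPM. The log2 fold change was 0.63 ± 0.136 (edgeR, adjusted p = 0.0413), 0.64 and 0.61 within batches 1 and 2, 0.68 without S2-4 (edgeR, adjusted p = 0.00216) and 0.47 with the length trend removed (edgeR, adjusted p = 0.0930). In rostral subcortical projection neurons of Cluster 4, which do not divide, saline embryos stood at 13.47, 13.55, 12.62, 15.07 and 22.72 CPM and EtOH embryos at 20.97 to 29.7 CPM, median 24.8. S2-4 was the only saline embryo inside the EtOH range. Its log2 fold change of 0.67 ± 0.143 (edgeR, adjusted p = 0.0495) compares with 0.78 and 0.58 within batches, 0.85 without S2-4 (edgeR, adjusted p = 6.34e-05) and 0.56 with the length trend removed, where it was still called. Leaving out any other embryo lost the call, and in Cluster 12 any but S2-4 and E1-1. With batch as a covariate the Mcm7 call was lost in Cluster 4 (edgeR, adjusted p = 0.0617) and in Cluster 12 (edgeR, adjusted p = 0.0524) and held in Cluster 2 (edgeR, adjusted p = 0.0464). Embryos share dams, and on counts summed per dam it held in Cluster 12 (edgeR, adjusted p = 0.0258) and was lost in Cluster 2 (edgeR, adjusted p = 0.135) and in Cluster 4 (edgeR, adjusted p = 0.209).

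Mcm7 leaned the same way elsewhere, short of a call. Its log2 fold change ran from 0.16 to 0.93 over the 22 clusters where it was tested, with a median of 0.53, and was above 0 in each. These clusters come from the same 11 embryos and are no replicates of each other. Of 5444 genes tested in as many clusters, 272 (5.0%) were also above 0 in every cluster. The groups did not overlap in Cluster 10, where saline stood at 41.2 ± 13.9 CPM (n = 5) and EtOH at 68.2 ± 9.20 CPM (n = 6), with a log2 fold change of 0.70 ± 0.175 (edgeR, adjusted p = 0.105). Over the 20 clusters that hold all embryos, 1.04% of gene tests had every EtOH embryo above every saline embryo. Among replication genes this held for 1 of 39 tested in Cluster 10 (Mcm7), 1 of 23 in Cluster 7 (Rfc3) and none in the other such clusters. In Cluster 11, 1 of 24 (Pola1) stood lower in EtOH without overlap, against 0.707% of all genes there. In Cluster 9, 1 of 19 (Atad2) did so. The share of all genes in Cluster 9 is not given here, so nothing is read from that count. For Mcm7, S2-4 was the highest saline embryo in 19 of the 22 clusters. S2-4 also had the shallowest nuclei of the saline embryos, with a median of 6325 UMIs against 8365 to 9051 in the other 4, which lies inside the EtOH range of 4071.5 to 6911. E1-1, the shallowest embryo, had the highest Mcm7 level over all nuclei, at 45.2 CPM, but stood second lowest of the 6 EtOH embryos in Cluster 2 (53.7 CPM) and in Cluster 12 (68 CPM), and was the highest of them in 8 of 22 clusters. With nuclei thinned to 2000 UMIs the log2 fold change of Mcm7 was 0.68 in Cluster 2 (edgeR, adjusted p = 0.0666), 0.84 in Cluster 4 (edgeR, adjusted p = 0.126) and 0.70 in Cluster 12 (edgeR, adjusted p = 0.0820), short of a call in each, and 0.49 over all nuclei (edgeR, adjusted p = 0.0402). Other effects of depth were not tested. Markers of some other cells moved alongside. All 5 microglial markers were in the tables, and they summed in Cluster 2 to between 16.6 and 41.5 CPM in saline and between 39.3 and 62.2 CPM in EtOH. In Cluster 12 they ran from 10.8 to 40.4 and from 34.1 to 62.7 CPM, with C1qa at 0. The Cajal-Retzius marker Reln moved the other way without overlap, from 58.3 to 133 CPM in saline and 17.5 to 46.5 CPM in EtOH in Cluster 2, and from 37.0 to 124 and 21.01 to 30.5 CPM in Cluster 12. The share of all genes that did not overlap in these clusters is not given here. Other markers in Cluster 2 showed no such shift. Endothelial markers ran from 7.61 to 12.7 CPM in saline and 8.63 to 15.2 CPM in EtOH. Mural, meningeal and erythroid markers overlapped there too. The part of other cells in the Mcm7 result was not tested.

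Mcm7 spans 7.84 kb (GRCm38, chromosome 5, 138164583 to 138172422, minus strand). Cops6 and Ap4m1 overlap it on the other strand, and the microRNAs Mir25, Mir93 and Mir106b lie on its own strand. Cops6, which encodes a COP9 signalosome subunit, changed by 0.03 on the log2 scale in Cluster 2 (edgeR, adjusted p = 0.979) and by 0.67 in Cluster 4 (edgeR, adjusted p = 0.117). Ap4m1, which encodes an adaptor subunit, changed by 0.27 in Cluster 2 (edgeR, adjusted p = 0.0914), 0.16 in Cluster 4 and 0.09 in Cluster 12. Cops6 was not tested in Cluster 12. Neither gene was called where it was tested in these clusters, and the share of reads that could come from them was not tested.

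**Figure D4:**
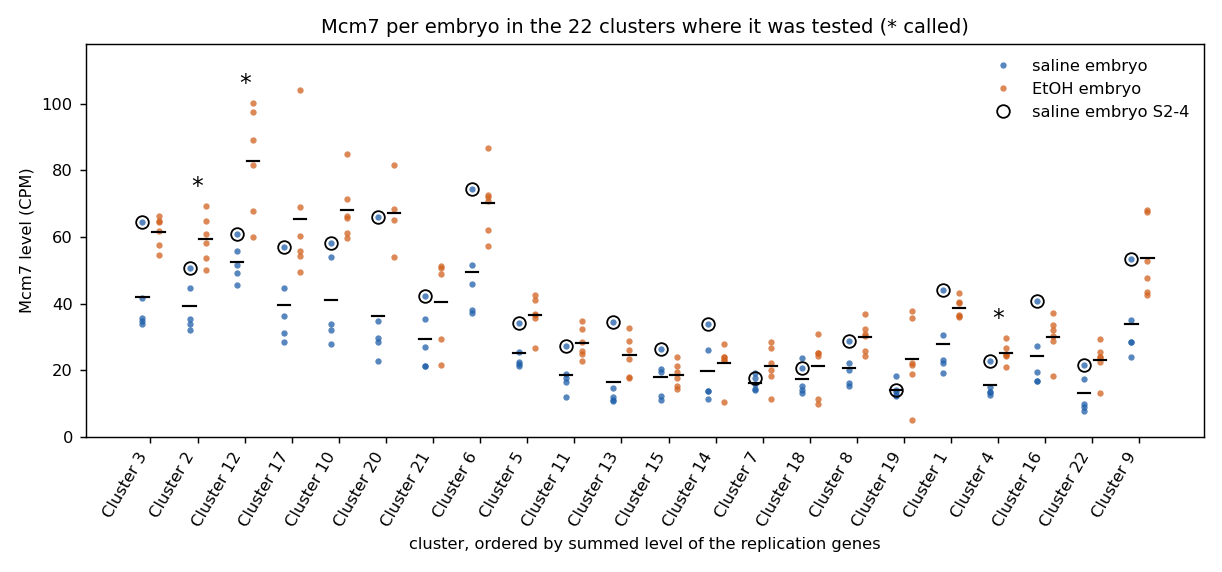
Mcm7 level per embryo (CPM, linear axis) in the 22 clusters where it was tested, ordered along the x axis by the summed level of the replication genes. Blue points are saline and orange points EtOH embryos, bars are group means, rings mark saline embryo S2-4, and asterisks mark Clusters 2, 12 and 4, where it was called. In Cluster 2 the saline embryos other than S2-4 lie between 32.1 and 44.8 CPM, under all EtOH embryos.

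Orc1 rose in callosal projection neurons of Cluster 1. Saline embryos S1-1, S1-2, S2-1, S2-2 and S2-4 stood at 6.30, 6.22, 9.08, 8.81 and 14.97 CPM and EtOH embryos at 14.8 to 19.6 CPM, median 16.2. S2-4 again lay inside the EtOH range, and the other saline embryos lay below it. Orc1 had a log2 fold change of 0.85 ± 0.201 (edgeR, adjusted p = 0.0320), 1.24 and 0.60 within batches 1 and 2, 1.11 without S2-4 (edgeR, adjusted p = 7.63e-05) and 0.84 with the length trend removed (edgeR, adjusted p = 0.0356). The call was lost on leaving out any embryo but S2-4 and E1-1, as was that of Pola1 in Cluster 1, and on dam sums (edgeR, adjusted p = 0.135) and thinned counts (edgeR, adjusted p = 0.113). Over the 17 clusters where Orc1 was tested, its log2 fold change ran from -0.08 to 0.85.

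Pola1 fell in Clusters 1 and 11. In Cluster 1 saline embryos stood at 106, 82.4, 96.7, 97.2 and 78.1 CPM and EtOH embryos at 60.5 to 78.6 CPM, median 73.5. The groups met at S2-4. The log2 fold change was -0.42 ± 0.0976 (edgeR, adjusted p = 0.0306), -0.55 and -0.33 within batches, -0.49 without S2-4 (edgeR, adjusted p = 0.000303) and -0.29 with the length trend removed, where the call was lost (edgeR, adjusted p = 0.0763). In striatal interneurons of Cluster 11 saline embryos stood at 175, 173, 187, 187 and 181 CPM and EtOH embryos at 136 to 157 CPM, median 149. Here the groups did not overlap, as was so in the same direction for 0.707% of genes in this cluster. The log2 fold change was -0.33 ± 0.0672 (edgeR, adjusted p = 0.0247), -0.39 and -0.30 within batches, -0.35 without S2-4 and -0.24 with the length trend removed, where the call was lost (edgeR, adjusted p = 0.0950). On dam sums both Pola1 calls were lost (edgeR, adjusted p = 0.0896 in Cluster 1 and 0.180 in Cluster 11), as they were on thinned counts (edgeR, adjusted p = 0.184 and 0.130).

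In the progenitor clusters without a call, the smallest unadjusted p-values belonged to a few genes. In Cluster 3 the log2 fold change was 0.52 for Mcm7 (edgeR, adjusted p = 0.0537), 0.26 for Slbp, which binds histone mRNA, and 0.37 for Mcm5. In Cluster 6 it was 0.47 for Mcm7, 0.54 for Orc1 and -0.36 for Prim2. In Cluster 10 it was 0.52 for Mcm5 and 0.49 for Cdc45 after Mcm7, and in Cluster 17 it was 0.68 for Mcm7, -0.36 for Rfc2 and -0.62 for Fen1, the flap nuclease. Prim2 and Atad2 stood lower in EtOH in Cluster 20 without overlap, on 4 EtOH embryos. Prim2 ran from 128 to 233 CPM in saline and from 94.9 to 114 CPM in EtOH (log2 fold change -0.64), and Atad2 from 174 to 257 and from 101 to 164 CPM (-0.56). In this cluster 1.67% of genes stood lower and 1.9% higher without overlap, and Pcna was the replication gene higher, at 12.4 to 18.98 CPM in saline and 20.4 to 23.7 CPM in EtOH (log2 fold change 0.39). Prim2, Atad2 and Pcna were not called (edgeR, adjusted p = 0.240, 0.241 and 0.774), and Mcm7 in Cluster 20 changed by 0.93 with the same result (edgeR, adjusted p = 0.241). In Cluster 21 the values were -0.55 for Pola1, -0.44 for Atad2 and 0.52 for Mcm6. The median over the replication genes tested was 0.09 in Cluster 3, -0.02 in Cluster 2, -0.04 in Cluster 12, 0.02 in Cluster 10, -0.03 in Cluster 17 and -0.24 in Cluster 20, against medians over all genes between 0.00 and 0.01 in these clusters.

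**Figure D5:**
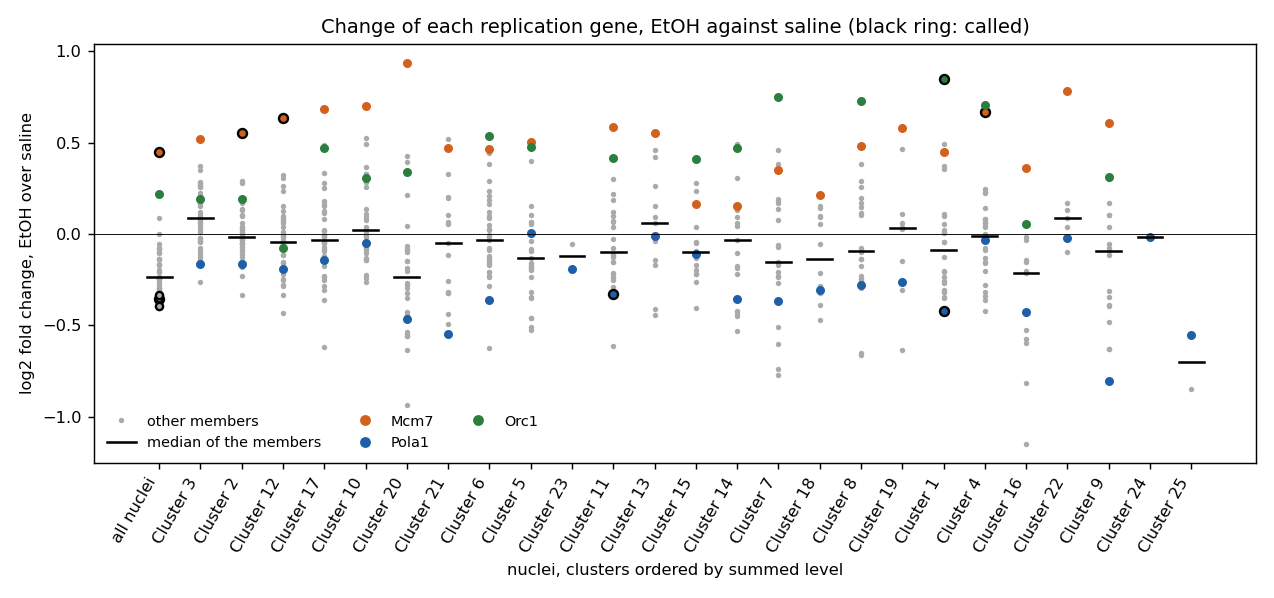
Log2 fold change, EtOH over saline, of each replication gene tested, for all nuclei and for 25 clusters ordered by summed level. Grey points are genes, colours mark Mcm7, Orc1 and Pola1, bars are medians over the replication genes, and black rings mark calls. Mcm7 lies above 0 throughout, from 0.16 to 0.93 in clusters, Pola1 lies mostly below, and the median over all nuclei is -0.24.

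Summed over all nuclei of an embryo, more replication genes leaned down, although the summed level of the list was not lower in batch 1. Of 39 genes tested, 1 was called higher and 4 lower, against 8.55% and 3.55% of 18138 genes (12.1% in either direction). Over these genes 36 of 39 log2 fold changes were below 0, with a median of -0.24 against 0.01 for all genes, and 21 of 39 (53.8%) had an unadjusted p under 0.05 against 38.1% of all genes. In such sums, fewer cells of a type and less RNA per cell cannot be told apart. The count was 9 without S2-4, where 23% of all genes were called, 10 without E1-1 (10.9%), 0 without S2-1 (3.02%), 2 without S2-2 (8.14%) and 3 without S1-2, E1-2, E2-1, E2-2 or E2-3 (2.27% to 6.53%). Counts without S1-1 and without E2-4 are not listed here and lay between 0 and 10. Within single batches few members were called. The count was 2 in batch 1 alone, against 17.9% of all genes, and 0 in batch 2 alone, against 0.00544%. The calls in batch 1 were Mcm7 (log2 fold change 0.73) and Orc1 (0.51), each higher in EtOH. No gene called lower with all embryos was called in either batch alone.

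Mcm7 was the gene called higher. Saline embryos S1-1, S1-2, S2-1, S2-2 and S2-4 stood at 22.4, 22.98, 24.1, 30.4 and 41.4 CPM and EtOH embryos at 37.8 to 45.2 CPM, median 39.02, with S2-4 alone inside the EtOH range. The log2 fold change was 0.45 ± 0.117 (edgeR, adjusted p = 0.0254), 0.73 and 0.29 within batches, 0.60 without S2-4 and 0.35 with the length trend removed, where it was still called. Cops6, its partner on the other strand, was called higher too, at a log2 fold change of 0.35 (edgeR, adjusted p = 0.0446), from a level of 7.35 CPM.

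The genes called lower over all nuclei were Pola1, Gins1, Mcm10 and Atad2. Pola1 stood at 225, 229, 269, 268 and 232 CPM in saline and at 184 to 232 CPM in EtOH, median 195, with a log2 fold change of -0.36 ± 0.0673 (edgeR, adjusted p = 0.0144). Gins1 stood at 24.4, 25.96, 30.3, 31.0 and 25.4 CPM in saline and at 21.01 to 24.1 CPM in EtOH, median 22.9, and was the gene of the list whose groups did not overlap, as held in that direction for 2.16% of all genes. Its log2 fold change was -0.35 ± 0.0688 (edgeR, adjusted p = 0.0148).

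Mcm10 stood at 11.7, 12.97, 16.4, 20.3 and 14.8 CPM in saline and at 11.04 to 14.1 CPM in EtOH, median 11.6 (log2 fold change -0.39 ± 0.110, edgeR, adjusted p = 0.0285). Atad2 stood at 88.8, 95.4, 107, 125 and 113 CPM and at 76.3 to 108 CPM, median 84.0 (log2 fold change -0.33 ± 0.0800, edgeR, adjusted p = 0.0199). Both genes overlapped between the groups, with both saline embryos of dam S1 inside the EtOH range and, for Atad2, S2-1 as well. Within batches 1 and 2 the log2 fold changes were -0.29 and -0.39 for Pola1, -0.24 and -0.41 for Gins1, -0.12 and -0.55 for Mcm10 and -0.16 and -0.43 for Atad2. With the length trend removed Pola1, at -0.28, was no longer called, while Gins1 (-0.36), Mcm10 (-0.41) and Atad2 (-0.32) still were. With dam as a random block the Mcm10 call was lost (edgeR, adjusted p = 0.0517), and on dam sums none of these genes was called. On thinned counts Pola1 was still called, Gins1 and Atad2 passed the adjusted p but not the fold threshold, and Mcm10 passed neither. Without S2-4 they were -0.39, -0.39, -0.42 and -0.33. A further 4 genes passed the adjusted p but not the fold threshold, with log2 fold changes of -0.31 for Pold3, a polymerase delta subunit, -0.28 for Prim2, -0.30 for Rrm1 and -0.24 for Rfc2. The share of all genes that passed the adjusted p alone is not given here, so this count has no background.

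The make-up of the embryos moved alongside. The 8 progenitor clusters held 36.2% to 41.9% of nuclei in saline embryos and 29.3% to 38.7% in EtOH embryos, and over all 11 embryos they gave 67.6 ± 4.97% of the replication UMIs on 32.9 ± 4.66% of all UMIs. Over the 20 clusters with all embryos, the summed replication level was 0.899-fold in EtOH with each embryo's own make-up. With every embryo set to the mean make-up it was 1.00-fold, at 1118 ± 90.9 CPM in saline and 1120 ± 52.1 CPM in EtOH embryos. The batches differed with each embryo's own make-up. In batch 1, saline embryos S1-1 and S1-2 stood at 1009 and 1065 CPM, and EtOH embryos E1-1 and E1-2 at 1213 and 960 CPM. Set to the mean make-up, Mcm10 went from 0.818-fold to 0.963-fold, Atad2 from 0.845 to 0.983, Gins1 from 0.837 to 0.924 and Pola1 from 0.829 to 0.915. Mcm7 went from 1.42-fold to 1.47-fold. This calculation was added after the data were seen, and carries no test.

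The change after EtOH was compared between progenitor clusters directly, within embryos. Of 39 replication genes, 0 were called by edgeR for a different change in Clusters 2 and 3, in Clusters 2 and 17 or in Clusters 3 and 10, where the background was 0%, 0% and 0.0086% of genes. An unadjusted p under 0.05 was reached by 1 gene (Helb) between Clusters 2 and 3, by 0 between Clusters 2 and 17 and by 0 between Clusters 3 and 10, against 4.49%, 4.69% and 5.11% of all genes. Differences in log2 fold change ran from -0.54 to 0.51, and none of that size passed the test.

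A second list of 48 replication genes, with the rest of the origin recognition complex, kinases and histone chaperones among them, was measured for comparison. Over all nuclei 1 of 48 was called higher and 8 lower, against the 8.55% and 3.55% of all genes. Pold2, the accessory subunit of polymerase delta, was the gene higher, at 2.61 to 5.77 CPM in saline and 5.04 to 6.59 CPM in EtOH (log2 fold change 0.60, edgeR, adjusted p = 0.0331). Only saline embryo S2-4, at 5.77 CPM, lay inside the EtOH range. Calls on this second list are not given here without S2-4. Those lower were Dbf4, which activates the Cdc7 kinase, Ticrr, Wdhd1, Chtf8, Asf1b, Tk1, E2f7 and Hells, with log2 fold changes from -0.56 to -0.40. In clusters, 0 of 737 tests were called higher by edgeR and 4 lower, against 0.442% and 0.35% of all gene tests, for Chtf8 in Cluster 1, Orc4 and Supt16 in Cluster 11 and Hells in Cluster 16. Pola1 and Orc4 were thus both called lower in Cluster 11.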

How the data were processed

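Nuclei were prepared with 10x Single Cell 3′ v3.1 chemistry, and per the labels the authors aligned reads with Cell Ranger to mm10. By the methods, low-quality nuclei and some genes were filtered out, non-neuronal clusters removed, and clusters from 30 harmonised components. The deposited values are UMI counts per gene and nucleus, with 1 table per embryo and cluster, so cluster identity was taken from the authors. By the methods Cell Ranger ran with its defaults. Doublet, intron and strand settings are not named in the sources used here, and no doublet caller was run. Counts were summed per embryo and cluster (at least 10 nuclei, otherwise that embryo was dropped, in 9 cases) and tested with edgeR 4.0.16 in R 4.3.3 (filterByExpr, TMM, robust quasi-likelihood, treatment only, Benjamini-Hochberg over all genes of the fit). DESeq2 1.42.0 and limma 3.58.1 served alternatives, Python 3.11.15, NumPy 2.4.6, pandas 2.3.3, SciPy 1.17.1 and matplotlib 3.10.9 the rest. The code was tested on simulated data. Levels are CPM of the sum, without TMM. No 2 libraries of the same dam agreed within sampling noise. Gene positions came from GENCODE M21, which matched 98.3% of symbols. Correlations over clusters used log2(CPM + 1).

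The genes, roles and comparison lists were chosen with earlier results of these data known. Named were called members, the 3 with the smallest unadjusted p in each progenitor cluster without a call, the member of each role with the most UMIs, the 5 with the highest and the 5 with the lowest ratio of neurons to cycling clusters, and the 10 genes most alike, of which 1 is not reported here. Other genes were named after their values were seen. Alternatives were another scaling, DESeq2, no filter, batch as a covariate, batches alone, dam sums, dam as a random block, thinned counts, at least 30 nuclei, each embryo left out and, added after the data were seen, a length trend removed and a fixed make-up.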

Additional observations from a re-analysis of the deposited data

Results flagged for a closer look

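Over 40 groups of values for the called genes and summed levels, 1 value stood far from its group. In Cluster 4, Mcm7 in saline embryo S2-4 was at 22.7 CPM. The nearest saline embryo was at 15.1 CPM and the lowest at 12.6 CPM, so the gap took 0.758 of the range of the group, over Dixon's critical value of 0.710 for 5 samples. Chance flags about 1 in 20 groups.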

How the results depend on the processing

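The 6 calls within clusters (0.792% of all gene tests called) numbered 10 with DESeq2 (2.61%), 27 without the filter on low counts (2.07%), 3 on dam sums (0.721%), 12 with dam as a random block (2.97%), 1 on thinned counts (0.658%), 17 in batch 1 (3.87%), 0 in batch 2 (0.0224%) and 2 with the length trend removed (0.627%), and ran from 0 to 32 with an embryo left out (0.0408% to 8.78%). None of the 6 was still called on thinned counts. The 5 calls over all nuclei (12.1% of all genes called) numbered 8 with DESeq2 (14.9%), 0 on dam sums (1.71%), 2 on thinned counts (6.62%), 2 in batch 1 (17.9%), 0 in batch 2 (0.00544%) and 8 with the length trend removed (11.6%), and ran from 0 to 10 (2.27% to 23%). The cause was not tested, other than that batches and dam sums hold fewer samples. With the length trend removed, all genes called over all nuclei split into 1257 higher and 847 lower, against 1550 and 643. Without a filter 5068 gene tests over clusters were called higher and 5661 lower. Each named call kept its direction under every alternative run. Mcm7 in Cluster 2 stayed called under 7 of 11 other settings and with 1 of 11 embryos left out, and Pola1 over all nuclei under 6 of 10 and with 10 of 11. Over all nuclei Gins1 stayed called under 6 of 10 and with 9 of 11. Atad2 did so under 6 of 10 and with 5 of 11, and Mcm10 under 5 of 10 and with 4 of 11. Pola1 in Cluster 11 stayed called under 6 of 11 and with 4 of 11. The log2 ratio of the summed level over all nuclei, -0.17, was 0.0682 in batch 1 and 0.00223 with the mean make-up, and in Cluster 12 it went from -0.05 to 0.175 in batch 1. Shares of nuclei with a replication UMI, thinned, unthinned and at 3 UMIs, were 93.0%, 99.2% and 72.3% in Cluster 2, 92.3%, 97.8% and 71.7% in Cluster 3, 84.3%, 94.1% and 51.3% in Cluster 10, 90.7%, 97.1% and 65.4% in Cluster 12, 94.2%, 99.7% and 73.4% in Cluster 17 and 56.7%, 91.7% and 7.34% in PN clusters. Single embryos could not be paired between the groups because the embryo numbers only count embryos within a dam. The batches hold both groups, and with batch as a covariate 4 calls were made in clusters and 5 over all nuclei. EtOH libraries were shallower, and 2 dams a group limit every comparison.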

Other observations

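Among the genes whose levels over the 25 clusters followed the summed replication level most closely, out of 9215 compared, were Dgcr8, Dek, Mms22l, Zgrf1, Cenph, Uhrf1, Usp1, Dsn1 and Ccne2, all with at least 20 CPM in some cluster, with r from 0.981 to 0.987 on log2 means. Uhrf1 guides DNA methylation to newly made DNA, and Ccne2 encodes a cyclin of S phase entry. Uhrf1 and Ccne2 were also on the second list of replication genes. The points share libraries, and the values are a description.

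Genes of G2 and mitosis were measured beside the replication genes. Over all nuclei 9 of 15 were called lower and 0 higher by edgeR, against 3.55% and 8.55% of all genes, with log2 fold changes of -0.69 for Cenpf, a kinetochore protein, -0.63 for Mki67, a proliferation marker, and -0.59 for Kif11, a spindle motor. Mki67 stood at 86.2 to 108 CPM in saline and 59.9 to 81.05 CPM in EtOH embryos, without overlap. The make-up of the embryos moved alongside here too, and the fixed make-up was not applied to these genes. In clusters 12 of 224 tests were called lower and 0 higher, against 0.35% and 0.442% of all gene tests, of which 10 were in clusters of neurons. Levels in those 10 were low, from 6.35 CPM (Tpx2, Cluster 1, 231 UMIs in all) to 24.3 CPM (Mki67, Cluster 14, 401 UMIs). These calls are not given here without S2-4 or on dam sums. Among progenitor clusters, Cenpf (-0.35) and Mki67 (-0.42) were called in Cluster 3 alone, and the median over the list was -0.01 in Cluster 2, -0.16 in Cluster 3, -0.56 in Cluster 6, -0.21 in Cluster 10, -0.31 in Cluster 12, -0.08 in Cluster 17, -0.62 in Cluster 20 and -0.42 in Cluster 21. Whether the replication and mitotic genes differ in their change was not tested.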
